A study of Mus musculus with 2 samples.

Results

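Luminal epithelial cells of the mouse prostate were compared within 1 single-cell library according to whether they carried the membrane GFP reporter of the Osr1 lineage. Members were chosen by thresholds on the deposited natural-log values, among cells whose column names end in _1. A cell was taken as luminal when Epcam and Krt8 were above 0, Krt5 was under 1 and Ptprc was 0. It was reporter-positive with EGFP at 2 or more and reporter-negative with EGFP under 1, where 2 corresponds to 6.39 UMIs (unique molecular identifiers, each 1 captured transcript) per 10000 and 1 to 1.72. Of 6332 cells with this suffix, 5326 passed on Epcam, 5010 also on Krt8, 3346 on Krt5 and 3121 on Ptprc. Of these, 578 were reporter-positive, 2468 were reporter-negative and 75 lay between the limits and were left out. The series holds 15742 cells in all. Every member came from that 1 library, so cells are not replicates: the intervals given are 95% intervals for counting error only, no p-value is given, and no comparison has a replicate check.

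The mice were R26 mTmG/hAR:Osr1 Cre/+ on a mixed C57BL/6 and 129S1/SvImJ background. One R26 allele carries the mTmG reporter and the other a floxed transgene (hARtg), and Cre is expressed from the Osr1 promoter. The 2 samples of the series were prostate tissue with prostatic intraepithelial neoplasia (PIN) from 6-month-old mice and prostate adenocarcinoma (PCa) from 12-month-old mice, with 1 library each. Reporter-negative cells came from the same tissue and genotype as reporter-positive cells, so they are cells of low or undetected reporter and not cells of a control animal. Reporter and transgene are recombined separately, and membrane GFP marks a cell and its descendants, whether or not Osr1 is still transcribed. No label states which tissue the suffix _1 stands for. The number of cells with this suffix equals the one that the study's methods give for the PIN sample after filtering, but no cell was assigned to a tissue on that ground. The features named EGFP and ARQ were read as the reporter and the transgene from their names alone.

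Luminal cells form the secretory layer of prostatic ducts and lie on a basal layer that contacts the stroma. They depend on androgen for their survival and for the secretion of seminal proteins such as probasin, the product of Pbsn. Secretory programs differ between the lobes and along the ducts: Tgm4, a transglutaminase of the seminal fluid, is made in some lobes, whereas Krt4, a keratin, marks cells near the urethra. Both genes were therefore used to set like cells against like cells.

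The table held whole UMIs. Reporter-positive cells had a median of 28935 UMIs and 4786 genes per cell, and reporter-negative cells 27082.5 UMIs and 4811 genes. The median mitochondrial share was 4.59% and 3.78%, respectively. The 2 suffixes shared 67 barcodes. All 578 positive and 2468 negative cells held 3 or more UMIs over the 6 luminal markers, whose summed level was 13840 CPM (UMIs per 1000000 UMIs of the side) in positive and 25150 CPM in negative cells, so both sides carried the label's markers and the positive side carried less of them. Markers of non-epithelial cell types were low on both sides, apart from the fibroblast list. For that list, 3 or more UMIs were held by 30.6% of positive and 16.45% of negative cells. Over 9 leukocyte markers the summed level was 14.9 CPM in positive and 27.5 CPM in negative cells, against 3375 CPM in the leukocytes of the library, with Ptprc at 0 by the rule. Over 4 smooth muscle markers it was 1.71 and 21.2 CPM, over 5 endothelial markers 9.35 and 7.37 CPM (Cdh5, Kdr and Cldn5 at 0 in positive cells), and over 6 fibroblast markers 217 and 124 CPM (Col3a1 and Lum at 0 in positive cells), nearly all of it Dcn. Over 4 neuroendocrine markers it was 0.427 and 0.245 CPM, with Chga at 0 on both sides, and over 7 seminal vesicle secretory genes 3.37 and 0.477 CPM. Basal markers summed to 1968 and 1616 CPM, with 3 or more UMIs in 96.0% and 96.7% of cells, and urothelial markers to 288 and 190 CPM, with 3 or more UMIs in 66.4% and 55.2%. The part of these cells or of free RNA in the results below was not tested.

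The reporter separated the cells by construction and the transgene followed it. EGFP stood at 5210 CPM in positive and 20.9 CPM in negative cells, with per-cell counts from 4 to 991 UMIs (median 125) in positive and from 0 to 8 UMIs (median 0) in negative cells. The leukocytes, which should lack both features, had EGFP at 35.4 CPM. This level cannot serve as a background for negative cells. The rule caps EGFP in them, and leukocytes were shallower, with a median of 3555 against 27082.5 UMIs. An EGFP UMI was found in 39.06% of negative luminal cells and 13.7% of leukocytes. ARQ, which the rule did not use, was 701 CPM in positive and 33.9 CPM in negative cells, a log2 ratio of 4.37 (4.31 to 4.43). It was detected in 549 of 578 positive cells (94.98%, exact binomial interval 92.9 to 96.6) and in 790 of 2468 negative cells (32.0%, 30.2 to 33.9). After every cell was thinned to 5000 UMIs, the share was 85.0% (81.8 to 87.8) in 566 positive cells, 10.4% (9.24 to 11.7) in 2405 negative cells and 2.82% (0.343 to 9.81) in 71 leukocytes, whose median depths before thinning were 29516, 27410 and 7641 UMIs. By level, ARQ in negative luminal cells was above the 9.48 CPM of leukocytes, and 187 negative cells held 3 or more ARQ UMIs, up to 59 in 1 cell. Osr1 itself, the zinc finger factor whose promoter drives Cre, gave 5 UMIs in all positive cells and 1 in all negative cells.

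**Figure D1:**
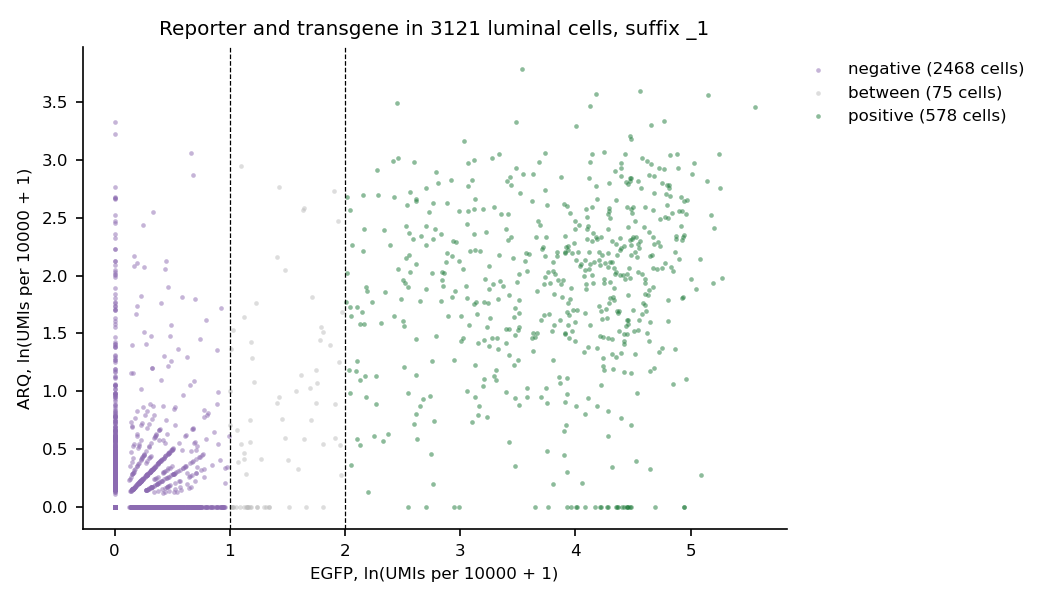
Reporter (EGFP, x axis) against transgene (ARQ, y axis) in each of the 3121 luminal cells, both as the natural log of UMIs per 10000 plus 1, with dashed lines at the limits 1 and 2. Reporter-positive cells have a median ARQ value of 1.97, with 29 of 578 at 0, and a minority of reporter-negative cells reaches ARQ values in the same range.

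The limits cut a continuous scale. The 3 positive cells nearest to the limit had EGFP values of 2.01, 2.02 and 2.02, from 4, 4 and 13 UMIs, and the 2 excluded cells just below it had 1.97 and 1.98, from 38 and 17 UMIs. The 3 negative cells nearest to their limit had 0.961, 0.974 and 0.994, from 7, 4 and 2 UMIs. The 75 cells between the limits had ARQ at 213 CPM, between the levels of the 2 sides.

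Reporter-positive cells were 19.0% (17.6 to 20.4) of the 3046 cells compared, and their share differed with the secretory state of the cells. They were 88 of 854 cells high in Tgm4 (value of 2 or more), which is 10.3% (8.35 to 12.5), against 462 of 1933 cells low in it (under 1), which is 23.9% (22.0 to 25.9). For Pbsn, a secreted lipocalin under androgen control, they were 8.01% (6.26 to 10.1) of high and 23.8% (21.9 to 25.8) of low cells. For Krt6a, a keratin of stressed and hyperproliferative epithelia, they were 6.45% (5.03 to 8.12) of high and 28.4% (26.1 to 30.7) of low cells. The order was opposite for Psca, a GPI-anchored surface antigen, with 31.6% (28.6 to 34.9) of high and 14.98% (13.3 to 16.8) of low cells, and for Msmb, a major secreted microseminoprotein, with 27.9% (24.9 to 31.1) and 14.7% (13.1 to 16.4). Krt4-high cells held 16.8% (11.6 to 23.1) positives and Krt4-low cells 19.4% (17.9 to 21.04), intervals that overlap. No interval here covers variation between animals.

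Summed UMIs of all genes were then compared. A feature was tested when the mean of its CPM on the 2 sides was 10 or more, and it was counted as different when the levels differed 2-fold or more. Of 7211 features, 181 were higher (2.51%) and 156 lower (2.16%) in reporter-positive cells, EGFP and ARQ included, and the median log2 ratio of all tested features was -0.15. All 181 and 156 counting intervals lay off 0, which the 2-fold limit nearly ensures at these counts, and 153 and 105 lay wholly past 2-fold. Centred on that median, the counts were 240 higher and 109 lower, so a ratio relative to the typical feature is 0.15 higher than the one printed. Differences past 8-fold numbered 26 among higher and 2 among lower features. How many cells carried a difference varied widely. For 15 of the 181 higher features, 10 or fewer positive cells held at least 50% of the positive side's UMIs, whereas for 77 of them that took 10% or more of the positive cells. Among the 156 lower features, 6 and 65 were of these kinds on the negative side. Both kinds are given apart.

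The highest ratios belonged to genes that the rule on extremes selected. Gm12886 and Gm12888, protein-coding gene models on chromosome 4, were among the highest ratios. In GRCm38.p6, the assembly behind mm10, Gm12886 lies at chr4:121414735-121423099 and Gm12888 at chr4:121316316-121324917, both on the minus strand. Gm12886 was 335 CPM in positive and 2.09 CPM in negative cells, a log2 ratio of 7.33 (7.10 to 7.57), and Gm12888 was 2009 and 73.9 CPM, a log2 ratio of 4.76 (4.72 to 4.81). Whether transcripts of the 2 gene models share reads was not tested, and each level is uncertain for that reason. The 250 bases before the start of each gene are shown because both genes are among the highest ratios and lie on the same strand of chromosome 4. They come from RefSeq on GRCm38.p6, are written 5′ to 3′ on the gene's strand, and have capitals at the longest stretch that is identical in both.
Gm12886, chr4:121423100-121423349: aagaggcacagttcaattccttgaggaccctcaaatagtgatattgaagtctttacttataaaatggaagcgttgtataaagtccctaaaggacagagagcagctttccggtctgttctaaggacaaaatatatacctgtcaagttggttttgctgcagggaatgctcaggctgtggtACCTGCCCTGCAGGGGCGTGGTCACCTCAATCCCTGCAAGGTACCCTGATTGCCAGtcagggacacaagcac
Gm12888, chr4:121324918-121325167: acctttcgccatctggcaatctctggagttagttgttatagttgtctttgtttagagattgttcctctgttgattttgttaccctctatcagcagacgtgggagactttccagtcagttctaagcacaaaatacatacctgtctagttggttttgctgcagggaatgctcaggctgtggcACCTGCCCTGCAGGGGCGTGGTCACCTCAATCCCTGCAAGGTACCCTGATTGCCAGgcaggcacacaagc
That stretch was 56 bases long. With a shift of 2 bases, 165 of 248 aligned bases were identical (66.5%). The likeness is a description of these windows only.

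Few positive cells carried most of the Gm12886 and Gm12888 transcripts. For Gm12886, 10 positive cells held at least 50% of its UMIs, the median positive cell had 0, the 90th percentile was 3.04 UMIs per 10000 and the highest cell 233. For Gm12888, 24 positive cells did so and the 90th percentile was 69.4 UMIs per 10000, against 0.192 in negative cells. Thinned to 5000 UMIs, Gm12888 was found in 33.4% (29.5 to 37.4) of positive cells, 3.87% (3.13 to 4.72) of negative cells and 1.41% (0.0357 to 7.60) of leukocytes. Gm12886 was found in 15.2% (12.3 to 18.4) of positive and 0.832% (0.509 to 1.28) of negative cells and in 0 of 71 leukocytes.

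Protease inhibitors of the Kazal (Spink) and whey acidic protein (Wfdc) families followed. Spinkl was 387 CPM in positive and 7.77 CPM in negative cells, but 5 positive cells held at least 50% of its UMIs and 1 negative cell did so on the other side. Spink11 was 676 and 30.6 CPM (log2 ratio 4.46, 4.40 to 4.53), carried by 16 positive cells in the same sense. Wfdc6b was 32.6 and 1.55 CPM, spread over 31 positive cells, and Wfdc10 69.5 and 4.20 CPM over 9. Spink1, a secreted trypsin inhibitor, was 1516 and 175 CPM (log2 ratio 3.11, 3.08 to 3.14), with 9 positive and 4 negative cells holding at least 50%. Scgb1b20, a secretoglobin, was 48.4 and 1.94 CPM, but 1 positive cell held at least 50% of its 906 UMIs, and without the cells high in Gm12888 its log2 ratio was -0.04 (-0.72 to 0.58). Klk1b21, a tissue kallikrein, was 72.2 and 5.56 CPM over 13 positive cells. Of 10 tested genes on a list of protease inhibitors, which holds neither Spinkl, Spink11, Wfdc6b nor Wfdc10, 3 were past 2-fold higher (Wfdc15b, Spink1 and Spink5) and 2 lower (the serpins Serpinb11 and Serpinb1a), with a median log2 ratio of -0.01. Members of these families are close relatives, so their single values are uncertain where reads are shared. Less concentrated were Mroh4 (85.6 and 5.75 CPM, 33 cells), Ggta1, which adds alpha-galactose to glycans (24.0 and 1.59 CPM, 47 cells), and Ptgds, a prostaglandin D synthase (20.5 and 1.12 CPM, 26 cells). Ggta1 was 38.5 CPM in leukocytes and found in 18.3% (10.1 to 29.3) of them after thinning, more than in the 7.42% (5.40 to 9.90) of positive cells.

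**Figure D2:**
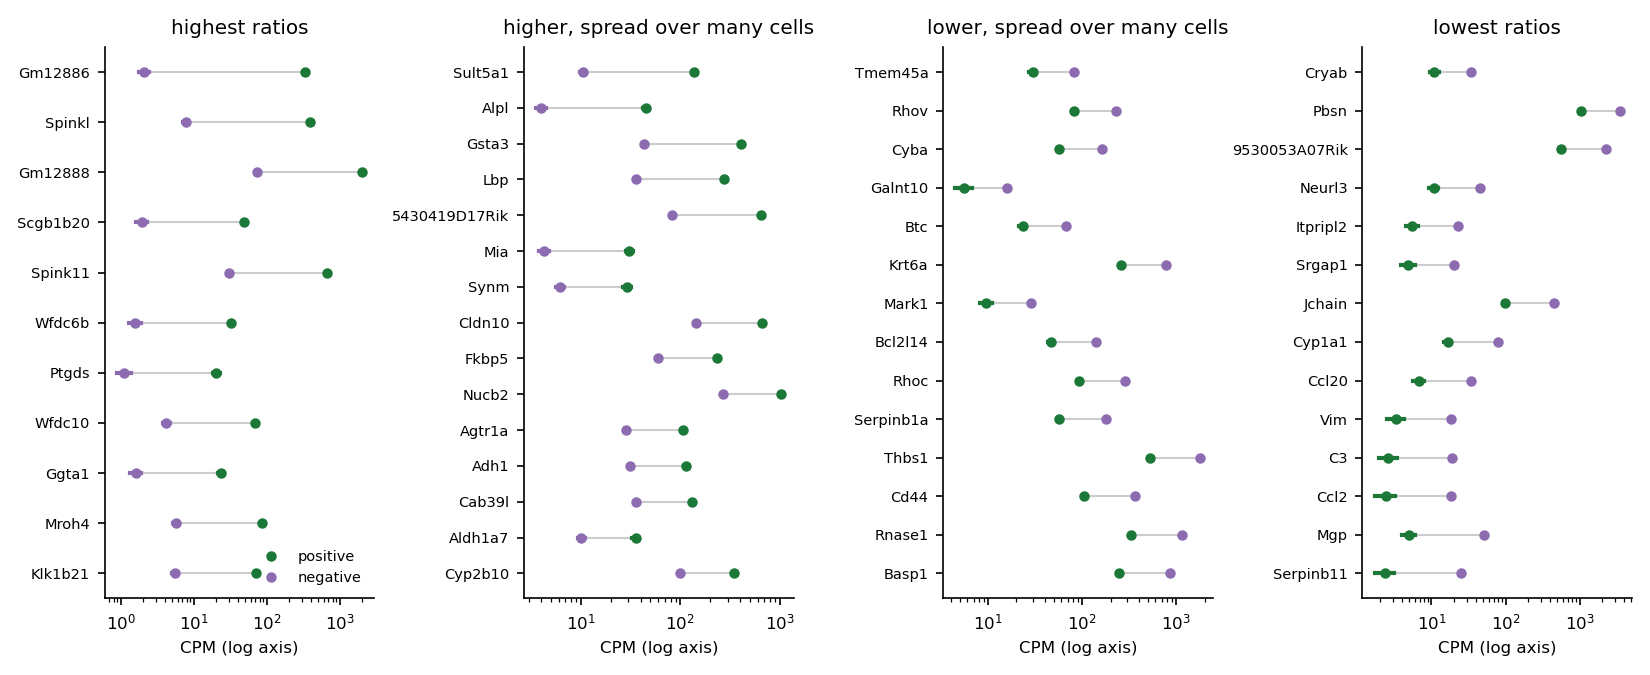
Level in reporter-positive (green) and reporter-negative (purple) luminal cells as CPM on a log axis, with bars for 95% Poisson counting intervals. Shown are the features with the highest and the lowest ratios, and the most extreme of those spread over 10% or more of the cells of the higher side. Green and purple points stand apart for every feature, from Gm12886 (335 against 2.09 CPM) to Basp1 (243 against 861 CPM).

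Cells high in Gm12888 (value of 2 or more, a group chosen after its values were seen) set much of this pattern apart. They were 142 of 578 positive cells, 24.6% (21.1 to 28.3), and 29 of 2468 negative cells, 1.18% (0.788 to 1.68). These positive cells gave 25.03% of the positive side's UMIs but 94.8% of its Gm12886, 98.8% of its Gm12888, 57.2% of its Mroh4, 56.2% of its Spink1 and 51.7% of its Lbp UMIs. They gave only 1.41% of Spink11, 0.304% of Spinkl and 0.846% of Wfdc10, so those transcripts were carried by other positive cells. Of the 29 negative cells in this group, all 29 held an ARQ UMI and 26 held 3 or more, with ARQ at 465 CPM and EGFP at 22.8 CPM, near that of all negative cells. Within the group, positive and negative cells had Gsta3 at 524 and 609 CPM, Lbp at 572 and 623 CPM, Cldn10 at 824 and 836 CPM and Psca at 8740 and 7572 CPM. Left out on both sides, the group took the number of higher features from 181 to 171 and of lower features from 156 to 132.

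The transgene also divided the reporter-negative cells, a split likewise looked at after the values were seen. The 187 negative cells with 3 or more ARQ UMIs (median 36625 UMIs) were set beside the 1678 with none (median 25420 UMIs). EGFP, which the rule caps in both, was 30.0 and 18.1 CPM in them. Gm12888-high cells were 26 of 187, 13.9% (9.29 to 19.7), and 0 of 1678, which allows a share of up to 0.179% (3 counts of the total). Several genes higher in reporter-positive cells were higher in these transgene-bearing negative cells too. Gsta3 was 228 against 18.9 CPM (log2 ratio 3.59, 3.47 to 3.72), Lbp 191 against 16.4 CPM (3.54, 3.41 to 3.67), Psca 4548 against 733 CPM (2.63, 2.61 to 2.65) and Fkbp5 132 against 46.5 CPM (1.51, 1.39 to 1.62). Some genes lower in reporter-positive cells stood between the 2 extremes, as with Thbs1 at 1021 against 1907 CPM, Rnase1 at 554 against 1295 CPM and Basp1 at 438 against 938 CPM, where reporter-positive cells had 526, 328 and 243 CPM. Pbsn was 2884 against 3415 CPM, also above the 1043 CPM of reporter-positive cells. Others lay outside that range. Serpinb11 (41.8 against 21.6 CPM) and Ccl20 (46.1 against 36.4 CPM) were highest in the transgene-bearing negative cells, with 2.35 and 6.73 CPM in reporter-positive cells. 9530053A07Rik (380 against 3018 CPM), Cyp1a1 (7.71 against 95.6 CPM), Mgp (2.71 against 65.8 CPM) and Jchain (4.14 against 640 CPM) were lowest there, with 564, 16.7, 4.91 and 98.4 CPM in reporter-positive cells. A cell of low reporter was thus not always a cell of low transgene in this library. Thinned to 5000 UMIs, which sets the depths equal, Gsta3 was found in 36.8% of the transgene-bearing and 5.98% of the other negative cells, and in 54.8% of positive cells.

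Higher features spread over 10% or more of the positive cells numbered 77, and 15 with the highest ratios, without the reporter and the transgene, are given here. These features were named for that spread after their values were seen. Gsta3, a glutathione S-transferase, was 408 CPM in positive and 43.2 CPM in negative cells (log2 ratio 3.24, 3.18 to 3.30). Its median was 1.89 UMIs per 10000 in positive and 0 in negative cells, its 90th percentiles were 11.1 and 0.918, and the positive cell had the higher value in 80.6% of all pairs of 1 positive and 1 negative cell, ties counted as 0.5. After thinning it was found in 54.8% (50.6 to 58.9) of positive cells, 9.52% of negative cells and none of the leukocytes. Sult5a1, a sulfotransferase, was 138 and 10.6 CPM (3.70, 3.59 to 3.82), Alpl, tissue alkaline phosphatase, 45.2 and 4.03 CPM (3.49, 3.29 to 3.68), Adh1, an alcohol dehydrogenase, 113 and 31.5 CPM, Aldh1a7, an aldehyde dehydrogenase, 35.8 and 10.2 CPM, and Cyp2b10, a cytochrome P450, 343 and 98.8 CPM. Of 23 tested glutathione and antioxidant enzymes, 3 were past 2-fold higher and none lower, with a median log2 ratio of 0.09. Gpx3, the secreted glutathione peroxidase, was among them at 352 and 68.5 CPM, but 31 positive cells held at least 50% of it.

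Lbp, which binds bacterial lipopolysaccharide, was 277 and 35.6 CPM (log2 ratio 2.96, 2.89 to 3.03), with the positive cell higher in 79.4% of pairs. Cldn10, a tight junction claudin, was 662 and 142 CPM (2.22, 2.18 to 2.26), the only one of 15 tested claudins and junction genes past 2-fold. Nucb2, the precursor of nesfatin, was 1020 and 266 CPM, with medians of 7.83 and 1.81 UMIs per 10000, and Agtr1a, an angiotensin receptor, was 106 and 28.9 CPM. Also in this set were 5430419D17Rik (645 and 82.8 CPM), Mia (30.7 and 4.26 CPM), Synm, an intermediate filament protein (29.2 and 6.25 CPM), and Cab39l, a partner of the kinase LKB1 (130 and 36.3 CPM). Psca, outside this set, was 6872 and 1200 CPM (2.52, 2.51 to 2.53), with a median of 5.07 and 1.07 UMIs per 10000. Its 90th percentiles were 243 and 28.5, and 32 positive cells held at least 50% of its UMIs. Mia and Synm had a median of 0 in positive cells and were found in 14.1% and 12.01% of them after thinning.

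Fkbp5, an immunophilin, was 232 CPM in positive and 59.3 CPM in negative cells (log2 ratio 1.97, 1.91 to 2.03). Its median was 1.54 and 0.234 UMIs per 10000, and after thinning it was found in 53.0% of positive cells, 18.5% of negative cells and 9.86% of leukocytes. Zbtb16, a zinc finger repressor, was 39.6 and 13.3 CPM (1.57, 1.44 to 1.71). None of 13 prostate lineage transcription factors were past 2-fold.

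Secretory genes of the prostate divided in both directions. Of 12 tested, 4 were past 2-fold higher and 5 lower, a larger share in each direction than over all tested features. The division differed between Krt4-low cells of unlike Tgm4 level. In Tgm4-high cells 6 of 12 were higher and 2 lower, with a median log2 ratio of 1.10. In Tgm4-low cells 2 of 10 were higher and 3 lower, with a median of -0.38. Values that follow are over all luminal cells. Azgp1, zinc-alpha-2-glycoprotein, was 899 and 292 CPM, Abo, a glycosyltransferase, 230 and 92.2 CPM, and Defb50, a beta-defensin, 18510 and 9235 CPM (log2 ratio 1.003, 0.997 to 1.009), the last at the limit. Pbsn was 1043 and 3478 CPM (-1.74, -1.76 to -1.72), with a median of 0.315 and 0.698 and a 90th percentile of 10.5 and 118 UMIs per 10000. It was found in 27.7% (24.1 to 31.6) of positive, 47.7% (45.7 to 49.7) of negative and 18.3% of leukocytes after thinning, and the last share is background. 9530053A07Rik was 564 and 2279 CPM (-2.01, -2.04 to -1.99), and the complement proteases C1s2 (44.7 and 126 CPM) and C1rb (127 and 347 CPM) were lower too. Msmb was 9204 and 8227 CPM, a log2 ratio of 0.16. Of 12 proximal luminal and progenitor genes, Psca was past 2-fold higher and Clu and Cxcl17 lower, with a median of -0.05.

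Lower features spread over 10% or more of the negative cells numbered 65, and genes with the lowest ratios among them are given here. They included adhesion, matrix and cytoskeletal genes. Cd44, the hyaluronan receptor, was 103 CPM in positive and 360 CPM in negative cells (log2 ratio -1.80, -1.87 to -1.73), with medians of 0 and 2.80 UMIs per 10000, and the positive cell was higher in 21.8% of pairs. Thbs1, the matrix glycoprotein thrombospondin 1, was 526 and 1797 CPM (-1.77, -1.80 to -1.74), with medians of 1.23 and 13.2. Rnase1, a secreted ribonuclease, was 328 and 1142 CPM, with medians of 0.200 and 9.31, and Basp1, a membrane-bound signalling protein, 243 and 861 CPM, with medians of 0 and 7.33. The GTPases Rhoc (93.4 and 282 CPM) and Rhov (82.6 and 229 CPM), the NADPH oxidase subunit Cyba (57.2 and 164 CPM) and the EGF family ligand Btc (23.2 and 67.5 CPM) were lower as well, and so were Krt6a (261 and 774 CPM) and Serpinb1a, an inhibitor of neutrophil proteases (56.7 and 177 CPM). Bcl2l14, Mark1, Galnt10 and Tmem45a were also among these genes.

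Keratins of the luminal layer were part of this. Krt18, the partner of Krt8, was 2767 and 6142 CPM (log2 ratio -1.15, -1.16 to -1.14), with medians of 20.5 and 55.1 UMIs per 10000, and the positive cell was higher in 17.3% of pairs. Krt8, which the rule required above 0, was 3903 and 7752 CPM (-0.99), and Krt19 was 3183 and 5867 CPM (-0.88). All 6 luminal markers had ratios below 0, with a median of -0.82. Of 10 tested basal markers, Krt15 (1139 and 411 CPM) and Col17a1 (16.0 and 6.54 CPM) were past 2-fold higher and Krt17 (189 and 494 CPM) lower. Clu, a secreted chaperone, was 3794 and 10150 CPM (-1.42), with medians of 10.9 and 53.3 UMIs per 10000.

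The lowest ratios were again often carried by few cells, now on the negative side. Mgp (4.91 and 50.7 CPM), Ccl2, a monocyte chemokine (2.40 and 18.2 CPM), Vim (3.31 and 18.1 CPM), Ccl20 (6.73 and 34.4 CPM) and Jchain, of secreted immunoglobulins (98.4 and 450 CPM), had at least 50% of their negative UMIs in 4, 2, 8, 7 and 6 cells, respectively. In leukocytes of the library, Vim was 901 CPM and Mgp 472 CPM. Spread more widely were Serpinb11 (2.35 and 25.3 CPM, log2 ratio -3.43, 47 cells), the complement component C3 (2.62 and 18.9 CPM, 58 cells) and Cyp1a1, a dioxin-inducible cytochrome P450 (16.7 and 80.4 CPM, 42 cells). The widest spread was that of Srgap1 (4.81 and 20.4 CPM, 226 cells) and Itpripl2 (5.50 and 23.1 CPM, 208 cells), found after thinning in 2.12% and 2.297% of positive and 8.69% and 9.69% of negative cells. Itpripl2 was found in 8.45% of leukocytes (3.17 to 17.5), near the share of negative cells and above the 2.297% of positive cells. Whether the leukocyte share is free RNA or the leukocytes' own transcripts was not tested.

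Signalling lists had 0 or 1 member past 2-fold each, too few to set against the 2.51% higher and 2.16% lower over all tested features. Of 13 tested IGF signalling genes, Jak2, a receptor-associated tyrosine kinase, was past 2-fold higher (62.4 and 30.7 CPM, log2 ratio 1.02, 0.92 to 1.13), none were lower, and the list's median was -0.06. Jak2 was at the limit, and without Gm12888-high cells its log2 ratio was 0.89 (0.77 to 1.01). Mapk13, a p38 kinase, was 203 and 114 CPM (0.83), with the positive cell higher in 70.1% of pairs, and Igf1r, the receptor, 72.3 and 62.9 CPM (0.20, 0.11 to 0.29). Of 8 tested Wnt targets and effectors, Cd44 was past 2-fold lower and none higher, with a median of -0.43. Axin2, a feedback inhibitor of the pathway, was 12.2 and 23.7 CPM (-0.96, -1.16 to -0.76), Ccnd1 56.2 and 57.4 CPM, Myc 164 and 211 CPM, Tcf4 23.1 and 24.1 CPM and Tcf7l2 36.3 and 58.6 CPM. Lgr5, a receptor of progenitor cells, was 14 and 59 UMIs in all, under the limit for testing. Mki67, of dividing cells, was also under it, at 1.87 and 4.37 CPM, and of 5 tested proliferation genes none were past 2-fold. EGF family genes had 1 of 8 lower (Btc), metallothioneins and zinc transporters 1 of 8 lower (Slc39a8, 55.5 and 120 CPM), and the TGF-beta and BMP, Notch and polyamine lists had none past 2-fold.

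Over all luminal cells, most tested MHC class I, interferon-stimulated and protein folding genes had ratios above 0, nearly all under 2-fold. MHC class II genes had ratios below 0 there. Of 17 tested interferon-stimulated genes, 16 had a ratio above 0 and Isg15 (147 and 70.9 CPM, log2 ratio 1.05) was past 2-fold, with a list median of 0.65, whereas 2251 of all 7211 tested features had a ratio above 0. Of 13 MHC class I genes, B2m, the light chain of class I molecules (16420 and 7553 CPM, 1.12), and H2-Q7 (1035 and 490 CPM, 1.08) were past 2-fold. Among Krt4-low cells, the class I median was 0.41 in Tgm4-high cells, with 2 of 13 past 2-fold higher. In Tgm4-low cells it was 0.06, with 0 of 13. Medians of all tested features were -0.12 and -0.13 there. B2m had medians of 128 and 60.5 UMIs per 10000, and the positive cell was higher in 74.5% of pairs. H2-Q7 has close relatives that share reads, and its value is uncertain. Of 6 MHC class II genes, 0 were past 2-fold and 0 had a ratio above 0, with a median of -0.43. Among Krt4-low cells, however, their median was 0.48 in Tgm4-high and -0.80 in Tgm4-low cells. It was 0.72 in basal cells of the library, so the sign differed with the cells compared. Of 20 endoplasmic reticulum folding and stress genes, 19 were above 0, with a median of 0.39 and Trib3 (14.9 and 7.13 CPM) past 2-fold. Innate defence genes went the other way, with 4 of 11 past 2-fold lower (C3, Ccl20, Cxcl1 and Cxcl2), Lbp higher and a median of -0.77. In Tgm4-high Krt4-low cells the median of the innate defence list was -0.11, with 0 of 9 tested past 2-fold lower and 1 higher. Of all features tested in those cells 0.555% were lower, and 9 genes are too few to set against that share. Matrix proteases and their inhibitors had a median of -0.73 over 8 genes with none past 2-fold. None of 19 immediate early and dissociation genes were past 2-fold (median -0.03), none of 12 mitochondrially encoded genes (0.08) and none of 77 ribosomal protein genes (0.14). Among 16 sterol and fatty acid genes, Scd1, a fatty acid desaturase, was past 2-fold higher (240 and 107 CPM), and the list's median was 0.00.

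**Figure D3:**
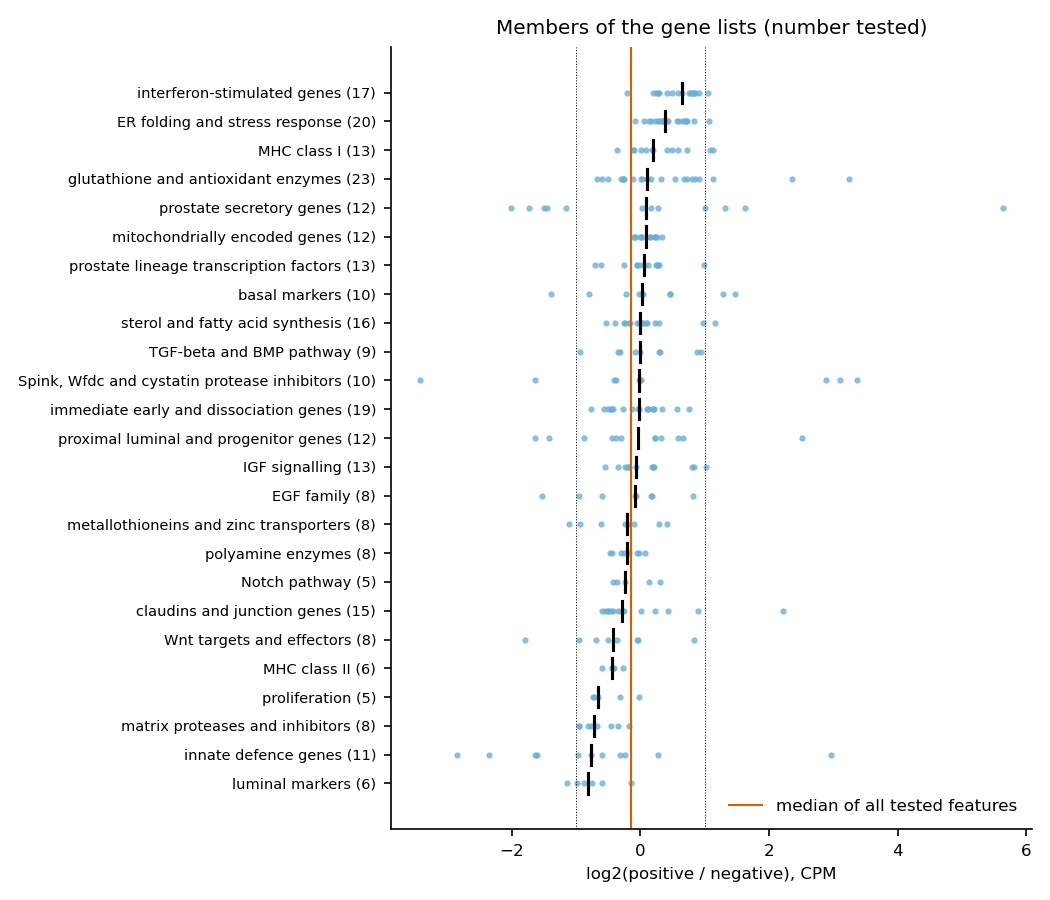
Log2 ratio of CPM (reporter-positive over reporter-negative luminal cells, x axis) for the tested members of each gene list with 5 or more tested members (rule genes, ribosomal protein genes and a list not reported here left out), 1 point per gene, with a black bar at the list's median, an orange line at the median of all tested features (-0.15) and dotted lines at 2-fold. Interferon-stimulated genes have the highest list median (0.65) and luminal markers the lowest (-0.82), and most points lie within 2-fold except among prostate secretory genes (4 higher and 5 lower of 12), with protease inhibitors evenly divided (3 and 2 of 10).

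Within cells of like secretory state the comparison was repeated where each side had 50 or more cells. This left 2 joint strata, both low in Krt4: Tgm4-high cells (85 positive, 723 negative, median 38323 and 25732 UMIs) and Tgm4-low cells (375 positive, 1079 negative, 27105 and 27492 UMIs). Tgm4-low Krt4-high cells (29 and 143) and Tgm4-high Krt4-high cells (1 and 5) were too few. In the Tgm4-high stratum 173 of 7213 features were higher (2.4%) and 40 lower (0.555%), and in the Tgm4-low stratum 182 of 7184 were higher (2.53%) and 223 lower (3.1%). Of 6816 features tested in both, 90 were past 2-fold higher in both (1.32%) and 17 lower in both (0.249%). Of the 181 features higher over all luminal cells, 132 were tested in the Tgm4-high stratum, all 132 above 0 and 113 past 2-fold, which is 62.4% of the 181 and 65.3% of the stratum's 173. Of the 156 lower over all luminal cells, 135 were tested in the Tgm4-high stratum, 130 of them below 0 and 20 past 2-fold lower. In the Tgm4-low stratum 140 were tested, all 140 below 0 and 136 past 2-fold lower. The strata share these cells with the comparison over all luminal cells, so the counts are a description and no independent check.

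Named genes higher in both strata were Gm12886, Gm12888, Spinkl, Wfdc6b and Klk1b21, with log2 ratios of 6.67, 6.73, 4.35, 4.54 and 7.54 in Tgm4-high and 7.36, 4.41, 6.85, 4.75 and 4.305 in Tgm4-low cells. Over all luminal cells, few positive cells carried much of the Gm12886, Gm12888, Spinkl and Klk1b21 transcripts. Gm12888-high cells, with 94.8% of the Gm12886 and 98.8% of the Gm12888 UMIs of positive cells, were rarely Tgm4-high. That share was 5.63% of the group's positive and 0% of its negative cells. How many cells carried these ratios within the Tgm4-high stratum was not tested, so they may rest on few cells. Further genes kept their direction: Gsta3 had 5.09 (4.78 to 5.41) and 2.85 (2.78 to 2.92), Lbp 3.92 and 2.88, Psca 3.16 and 2.65, and Fkbp5 2.44 and 1.64. Gsta3 and Cldn10 were lower to begin with in Tgm4-high negative cells (4.84 and 16.0 CPM) than in Tgm4-low negative cells (67.2 and 210 CPM), and their ratios differed between strata by 2.24 (1.93 to 2.56) and 2.46 (2.28 to 2.64). Named genes lower in both were Cryab, a small heat shock protein (-1.54 and -1.70), Neurl3, an E3 ligase (-1.54 and -2.23), Pbsn (-1.496 and -2.15), 9530053A07Rik (-1.44 and -1.99) and Cyp1a1 (-1.71 and -3.69). Cd44, Thbs1, Rnase1 and Basp1 were lower in both, but past 2-fold in the Tgm4-low stratum alone. For Basp1 the ratio was -0.62 in Tgm4-high and -2.45 in Tgm4-low cells, a difference of 1.83 (1.73 to 1.93).

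Several genes pointed opposite ways in the 2 strata. Msmb was 7558 against 1955 CPM in Tgm4-high cells (log2 ratio 1.95, 1.93 to 1.97) and 11200 against 16050 CPM in Tgm4-low cells (-0.52, -0.53 to -0.51), a difference of 2.47 (2.44 to 2.49). Sbp, a secreted spermine-binding protein, behaved alike, with 156 against 24.8 CPM (2.65) and 2682 against 3945 CPM (-0.56). Wfdc3 had 1.26 and -0.69. Ccl2, Vim and Mgp had 2.53, 1.95 and 0.46 in Tgm4-high and -5.49, -4.96 and -4.28 in Tgm4-low cells, though few cells carried them. In the 30 positive and 149 negative Krt4-high cells, below the size set for a stratum, Gsta3 had 3.39, Lbp 2.62, Psca 2.38, Fkbp5 1.53, Cd44 -2.20 and Thbs1 -2.40, while Cldn10 had 0.34, Spink1 0.04 and Pbsn 0.12.

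**Figure D4:**
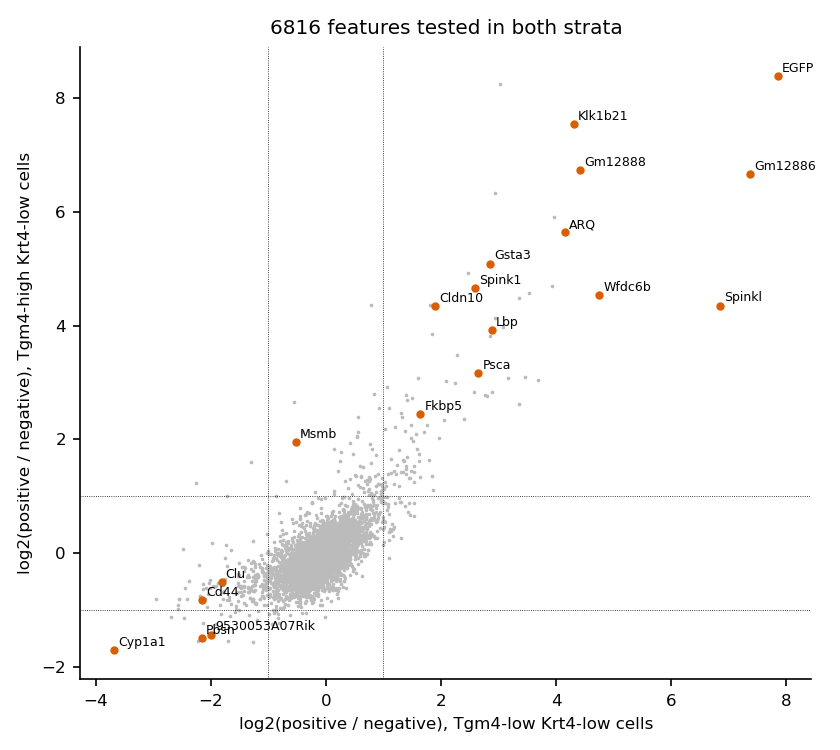
Log2 ratio of CPM (reporter-positive over reporter-negative) in Tgm4-low Krt4-low cells (x axis) against Tgm4-high Krt4-low cells (y axis), 1 point per feature tested in both strata, with dotted lines at 2-fold and a set of genes named in orange. Gsta3, Lbp, Psca, Fkbp5 and Gm12888 lie past 2-fold in both, Cd44 and Clu lie past it on the x axis alone, and Msmb lies on opposite sides of 0.

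Levels were also followed over bins of the reporter. The rule used EGFP to form these bins, so they describe the members and test nothing. From EGFP 0 (1504 cells) through above 0 to under 1 (964), 1 to under 2 (75), 2 to under 3 (114), 3 to under 4 (183) and 4 or more (281), ARQ was 29.5, 39.0, 213, 641, 646 and 782 CPM. Gsta3 was 32.7, 55.2, 165, 443, 425 and 374 CPM and Psca 1187, 1214, 4917, 8016, 5746 and 7224 CPM, so within positive cells neither went up with the reporter. Fkbp5 was 51.9, 67.8, 80.9, 171, 237 and 260 CPM and Gm12888 65.1, 84.0, 666, 775, 1427 and 3189 CPM, highest in the top bin. In the opposite direction, Cd44 was 359, 362, 230, 166, 107 and 66.3 CPM, Thbs1 1741, 1862, 1247, 877, 492 and 365 CPM and Pbsn 3472, 3483, 2991, 1939, 1310 and 320 CPM. Levels of these 3 genes were therefore lower in each bin from 2 upwards, whereas the 2 bins under 1 were close to each other. Median depth was 24632, 32490, 21364, 34032, 35315 and 23712 UMIs in the 6 bins and did not follow the reporter.

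**Figure D5:**
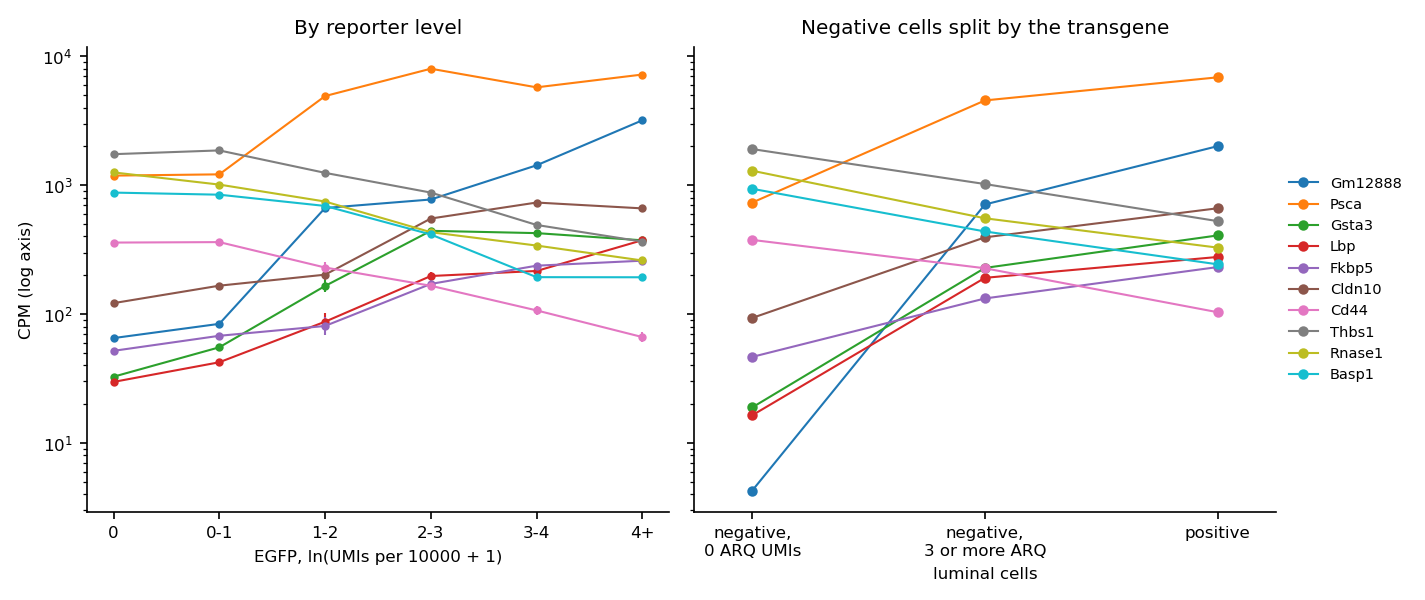
Left, level (CPM, log axis) of 10 genes in luminal cells by EGFP value, with bars for 95% Poisson counting intervals; right, the same genes in reporter-negative cells with 0 ARQ UMIs (1678), reporter-negative cells with 3 or more (187) and reporter-positive cells (578). Gsta3 runs from 18.9 over 228 to 408 CPM and Thbs1 from 1907 over 1021 to 526 CPM in the right panel, so the transgene-bearing negative cells lie between the others.

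In luminal cells with the suffix _2 the same limits gave 7348 positive and 158 negative cells, so nearly all cells were positive and the negative side was small. There 604 of 7368 features were higher (8.2%) and 1129 lower (15.3%). Of the 181 features higher with suffix _1, 119 were tested, 72 were above 0 and 42 past 2-fold, and of the 156 lower, 104 were tested, 79 were below 0 and 66 past 2-fold. Gsta3 was higher in both (335 against 19.7 CPM, log2 ratio 4.09), as were Klk1b21 (3.18), Mia (2.65) and Nucb2 (2.36). Fkbp5 had 0.81 and Cldn10 0.76 there, and Lbp 0.33. Psca (-2.13) and Gm12888 (-3.09) had the opposite sign, and so did Spink1. Rnase1 (-1.93), Thbs1 (-1.95), Basp1 (-2.68), Cd44 (-1.22) and Pbsn (-4.97) were lower in both, while Krt18 was higher (1.07). The suffixes are separate libraries without a stated tissue, so tissue, age and library cannot be told apart in these values.

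Basal cells with the suffix _1 (Epcam above 0, Krt5 at 2 or more, Ptprc 0) gave 281 positive and 918 negative cells under the same reporter limits, with 96 of 6593 features higher (1.46%) and 127 lower (1.93%). Of the 181 features higher in luminal cells, 37 were past 2-fold higher in basal cells (20.4% of the 181 and 38.5% of the 96). Some differences were alike in size: 5430419D17Rik had 2.96 in luminal and 3.28 in basal cells, Azgp1 1.62 and 1.76, Zbtb16 1.57 and 1.504 (difference 0.07, -0.49 to 0.63), Aldh1a7 1.81 and 1.73, and Rhoc -1.59 and -1.64 (0.04, -0.12 to 0.20). Larger in luminal cells were Sult5a1 (3.70 and 0.56, difference 3.15, 3.001 to 3.29), Gm12888 (difference 3.66, 3.46 to 3.86), Psca (1.80, 1.77 to 1.84), Lbp (1.44, 1.30 to 1.57), Fkbp5 (0.92, 0.61 to 1.24) and Gsta3 (0.88, 0.68 to 1.09). Basp1 (-1.82 and -0.48), Rnase1 (-1.80 and -0.27) and Cyba (-1.52 and -0.30) were further below 0 in luminal cells. Median depth was 15968 UMIs in positive and 11068 in negative basal cells, a wider gap than in luminal cells, and its part in these differences was not tested.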

How the data were processed

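Single-cell suspensions were profiled by 10x Chromium 3′ v2 sequencing. Per the labels and the study's methods, reads were aligned with Cell Ranger 3.1.0 to mm10 with the mGFP and hARtg sequences added, and empty droplets, multiplets and cells with many mitochondrial reads were removed by the authors. The authors deposited a table of natural log values, ln(UMIs per 10000 + 1), for 19320 features and 15742 cells. Exponentiating and dividing by each cell's smallest step returned whole UMIs for 100% of values within 0.01, and these UMIs were summed per side, scaled to CPM and compared as log2 ratios with exact conditional binomial intervals (scipy 1.17.1, numpy 2.4.6, Python 3.11.15). Shares have Clopper-Pearson intervals, CPM exact Poisson intervals, and differences of 2 log2 ratios normal intervals from the Poisson variance of the counts. Intervals cover counting error at 95% only. A sum of 0 was set to 3 UMIs, and a feature with 3 or fewer UMIs on each side got no ratio. With 1 library no test could be run. The ratio code was tested on simulated data.

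Leukocytes were cells of suffix _1 with Ptprc above 0 and Epcam, Krt8 and Krt5 at 0 (357 cells). Genes were named as the 10 highest and 10 lowest ratios, the 5 higher and 5 lower with the largest smallest ratio over the usable strata, the 2 highest and 2 lowest of each of the gene lists, and 20 genes named by the study or its design; rule genes, ARQ and mitochondrial genes were left out of the first 2 sets. Genes spread over 10% or more of cells, the Gm12888-high group and the transgene split of negative cells were chosen after the values were seen. Members and lists were chosen with earlier results of these data known. Doublets were scored with Scrublet in scanpy 1.11.5. The 2 feature names that a spreadsheet had turned into dates were kept in totals and not named. Coordinates and sequences came from RefSeq on GRCm38.p6, and 17280 feature names matched its symbols. Some items are not reported here.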

Additional observations from a re-analysis of the deposited data

How the results depend on the processing

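No alternative moved the 181 higher or 156 lower features by more than 1.5 times except testing every feature with 4 or more UMIs, which gave 1294 and 1340. With a mean CPM of 5 or more they were 254 and 216. Other planned settings (equal weight per cell, other scalings, other reporter limits, the split by ARQ, doublet, Krt5 and Krt14, depth and mitochondrial limits, thinning) gave 168 to 240 higher and 109 to 217 lower. Centring on the median log2 ratio gave 240 and 109. The counts shared by the strata were less stable. The 17 features lower in every usable stratum became 11 with every cell weighing the same, 11 after centring, 41 with positive cells from EGFP 3, 42 after thinning to 5000 UMIs, 29 at a mean CPM of 5, 203 with 4 or more UMIs and 28 in 4 strata split at the medians of Tgm4 and Krt4. The 90 higher became 137 at a mean CPM of 5 and 421 with 4 or more UMIs. The cause was not tested, except that lower limits admit more features. The 2 settings added after seeing the data were as follows. Leaving out the 5 cells with the most UMIs of each feature on each side gave 52 higher and 109 lower in both strata (138 and 211 over all luminal cells), and leaving out Gm12888-high cells gave 90 and 16. The first of these settings kept each side's total UMIs. It also took a larger part of the smaller positive side (85 against 723 cells in the Tgm4-high stratum). Ratios are thereby lowered by construction, with a median of -0.21 over all luminal cells, so its counts cannot show how firm the calls are.

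Of 54 named genes past 2-fold, 49 to 54 stayed past it under the 11 planned settings that gave gene values. Scgb1b20 reversed, to -2.03 under 5% mitochondrial UMIs and to -0.044 without Gm12888-high cells. Under 2-fold were Jak2, Isg15 and Trib3 with equal weight or thinning, Serpinb11, Cxcl17, Isg15, Trib3 and Slc39a8 with the split by ARQ, Slc39a8 after centring, Trib3 without Krt5 and Krt14, Ccl20 within the depth limits and H2-Q7 and Isg15 within the mitochondrial limit. Jak2 and Isg15 were also under it in both settings added later. So were H2-Q7 without Gm12888-high cells and Trib3 without the 5 cells with the most UMIs. Thinned to 10000 rather than 5000 UMIs, 252 of the shares of cells with a UMI left their interval and 32 stayed in it, as more UMIs detect more genes. Scrublet marked 6 positive and 15 negative cells at a score of 0.25 or more, of 97 such cells (1.53%) in the library. No paired analysis was possible because the cells of both sides came from a single library.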
